A study of Mus musculus with 2 samples.

Results

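The semaphorins, the plexins and the collapsin response mediator proteins (CRMPs) were followed in whole mouse embryos with and without Usb1. Members were taken by symbol: every semaphorin of classes 3 to 7, every plexin, Crmp1 and Dpysl2 to Dpysl5. This gave 34 of the 32285 genes counted, of which 20 encode semaphorins, 9 encode plexins and 5 encode CRMPs. The symbols alone defined the set, but earlier results of these data were known when it was chosen.

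Semaphorins are secreted or membrane-bound cues that steer axons, migrating cells and growing vessels, and most of them act as repellents. Plexins are their receptors. They carry a GTPase-activating domain on the inside of the cell, and most secreted class 3 semaphorins reach them only through the co-receptors neuropilin 1 and 2 (Nrp1, Nrp2). CRMPs are cytosolic proteins that bind tubulin and pass the semaphorin 3A signal to the growth cone cytoskeleton. At mid-gestation the family is best known for patterning the first vessels, the cardiac outflow tract, neural crest streams and early axon paths.

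The data were 2 droplet single-cell RNA libraries of whole embryos at embryonic day (E) 9.5. One library came from wild-type embryos, and the other from Usb1 knockout embryos (Usb1-null), in which CRISPR/Cas9 editing was designed to remove exons 1 and 2 of Usb1 from the germline. The enzyme made from Usb1 shortens the tail of U6, a spliceosomal RNA, and the null embryos came from intercrosses of heterozygous mice. How many embryos went into either library was not stated, and the tissue of both libraries is labelled as the entire embryo. With 1 library per group no test was possible. Each value below therefore carries a 95% interval for counting error only, which says nothing of the spread between embryos, litters or preparations.

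The wild-type library kept 15161 cells with a median of 1243 unique molecular identifiers (UMIs) per cell, and the Usb1-null library kept 13018 cells with a median of 2299.5. Levels are UMIs of a gene per 1000000 UMIs (CPM). Xist was at 2451.5 CPM in the wild-type and 0.779 CPM in the Usb1-null library, and the Y-linked gene Uty had 3 and 11796 UMIs, so that sex and genotype cannot be told apart. Usb1 itself had 68 and 47 UMIs, or 3.13 and 1.41 CPM, a ratio of Usb1-null over wild-type of 0.450 (0.304 to 0.662). It was lower in the library labelled Usb1-null, but this does not check the deletion, since 3′ counting favours sequence outside the deleted exons and the place of these UMIs in the gene was not measured. A cluster with adult liver markers held 61 Usb1-null cells and no wild-type cell. Members were placed in the 18 clusters that held 100 or more cells of both libraries, and 14 of them could be named from cell type markers. Clusters 6, 9, 10 and 15 were left with a number: cluster 6 carried 10 of 14 craniofacial mesenchyme markers together with neural crest markers, and cells of cluster 9 were shallow, at 0.55 of the typical depth of their libraries. The name roof plate and dorsal neural tube-like is weak. That cluster raised 6 of 11 markers of its list, without Msx1, Msx2, Gdf7 and Rspo1, and 5 neural progenitor markers. Clusters with the same best list got no name when variable genes were chosen otherwise or the library correction was left out. Free RNA was gauged from 13 heart muscle genes, whose summed level in the other clusters had a median of 1.85% of that in cardiomyocyte-like cells in the wild-type (1.22 to 3.84%) and 1.18% in the Usb1-null library (0.662 to 3.34%). Levels of that order, relative to a gene's highest cluster, were not read as expression.

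Of the 6 members whose highest cluster exceeded the median one by more than 10-fold, 3 (Plxnd1, Sema3g and Sema6d) were highest in endothelial-like cells, as was the sparse Sema6b. The start regions of these genes are shown first, with that of Sema3e, the member with the largest ratio between the libraries. Each sequence runs from 250 bases before to 50 bases after the RefSeq start of the gene (GRCm38.p6). Capitals mark a match to GGAAGT, the core bound by ETS factors (both strands), in Sema6d and Sema3e, and to the E-box CAGCTG in Sema3g. Plxnd1 (minus strand) lies at chr6:115994956-115995255, Sema3g (plus) at chr14:31217623-31217922, Sema6b (minus) at chr17:56140294-56140593, Sema6d (plus) at chr2:124089719-124090018 and Sema3e (plus) at chr5:14025026-14025325.
Plxnd1: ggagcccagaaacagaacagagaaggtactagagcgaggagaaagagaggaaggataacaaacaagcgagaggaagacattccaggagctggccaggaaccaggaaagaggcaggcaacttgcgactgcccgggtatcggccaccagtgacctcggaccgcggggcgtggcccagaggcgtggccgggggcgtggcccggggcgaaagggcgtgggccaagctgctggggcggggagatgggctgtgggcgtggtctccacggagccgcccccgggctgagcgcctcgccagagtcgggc
Sema3g: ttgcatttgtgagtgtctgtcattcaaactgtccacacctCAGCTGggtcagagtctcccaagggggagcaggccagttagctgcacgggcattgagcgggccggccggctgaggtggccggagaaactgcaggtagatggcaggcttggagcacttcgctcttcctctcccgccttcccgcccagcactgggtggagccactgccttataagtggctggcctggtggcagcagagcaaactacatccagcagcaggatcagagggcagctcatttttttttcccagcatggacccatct
Sema6b: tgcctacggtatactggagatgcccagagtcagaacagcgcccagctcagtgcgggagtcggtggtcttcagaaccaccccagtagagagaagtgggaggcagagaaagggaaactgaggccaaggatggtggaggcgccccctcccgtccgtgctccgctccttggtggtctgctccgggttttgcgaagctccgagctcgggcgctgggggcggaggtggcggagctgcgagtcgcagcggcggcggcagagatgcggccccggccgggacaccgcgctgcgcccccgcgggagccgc
Sema6d: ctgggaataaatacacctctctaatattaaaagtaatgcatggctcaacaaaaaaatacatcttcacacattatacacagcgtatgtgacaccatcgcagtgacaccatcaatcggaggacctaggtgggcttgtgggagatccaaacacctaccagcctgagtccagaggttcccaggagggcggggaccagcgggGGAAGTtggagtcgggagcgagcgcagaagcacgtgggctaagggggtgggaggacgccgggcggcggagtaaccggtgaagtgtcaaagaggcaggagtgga
Sema3e: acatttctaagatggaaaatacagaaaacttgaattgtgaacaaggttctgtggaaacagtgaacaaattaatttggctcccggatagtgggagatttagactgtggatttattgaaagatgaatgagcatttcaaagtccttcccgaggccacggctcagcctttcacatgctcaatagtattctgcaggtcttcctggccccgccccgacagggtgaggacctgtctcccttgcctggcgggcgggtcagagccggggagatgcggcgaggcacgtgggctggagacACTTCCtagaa
The match in Sema6d began 53 bases before the start, that in Sema3g 210 bases before it, and that in Sema3e 40 bases after it. Of the 26 members with an entry, 5 held GGAAGT and 5 held CAGCTG. Among all 32851 windows of this length, 23.8% held the first and 16.3% the second. The motifs were picked after the endothelial-like pattern was seen, and a match is a run of letters, not a site.

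Of the 34 members, 32 reached 50 UMIs over both libraries. The exceptions were Sema4f, with 14 and 24 UMIs in the wild-type and Usb1-null libraries, and Plxnb3, with 3 and 5 UMIs. Place in the embryo was read for the 29 members with at least 200 UMIs, as the cluster with the highest mean of the CPM in both libraries. The same cluster came first in each library taken alone for 17 of the 29, and for 6 of them the first cluster stood above the second beyond counting error in both libraries. The highest cluster exceeded the median cluster by 1.249-fold for Plxna3 and by 40.0-fold for Plxnd1. It did so by more than 10-fold for 6 members and by less than 2-fold for 7. Levels were not compared between genes, because longer genes had more UMIs (Spearman's rho of gene span and level 0.757 over the 34 members, a description only).

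**Figure D1:**
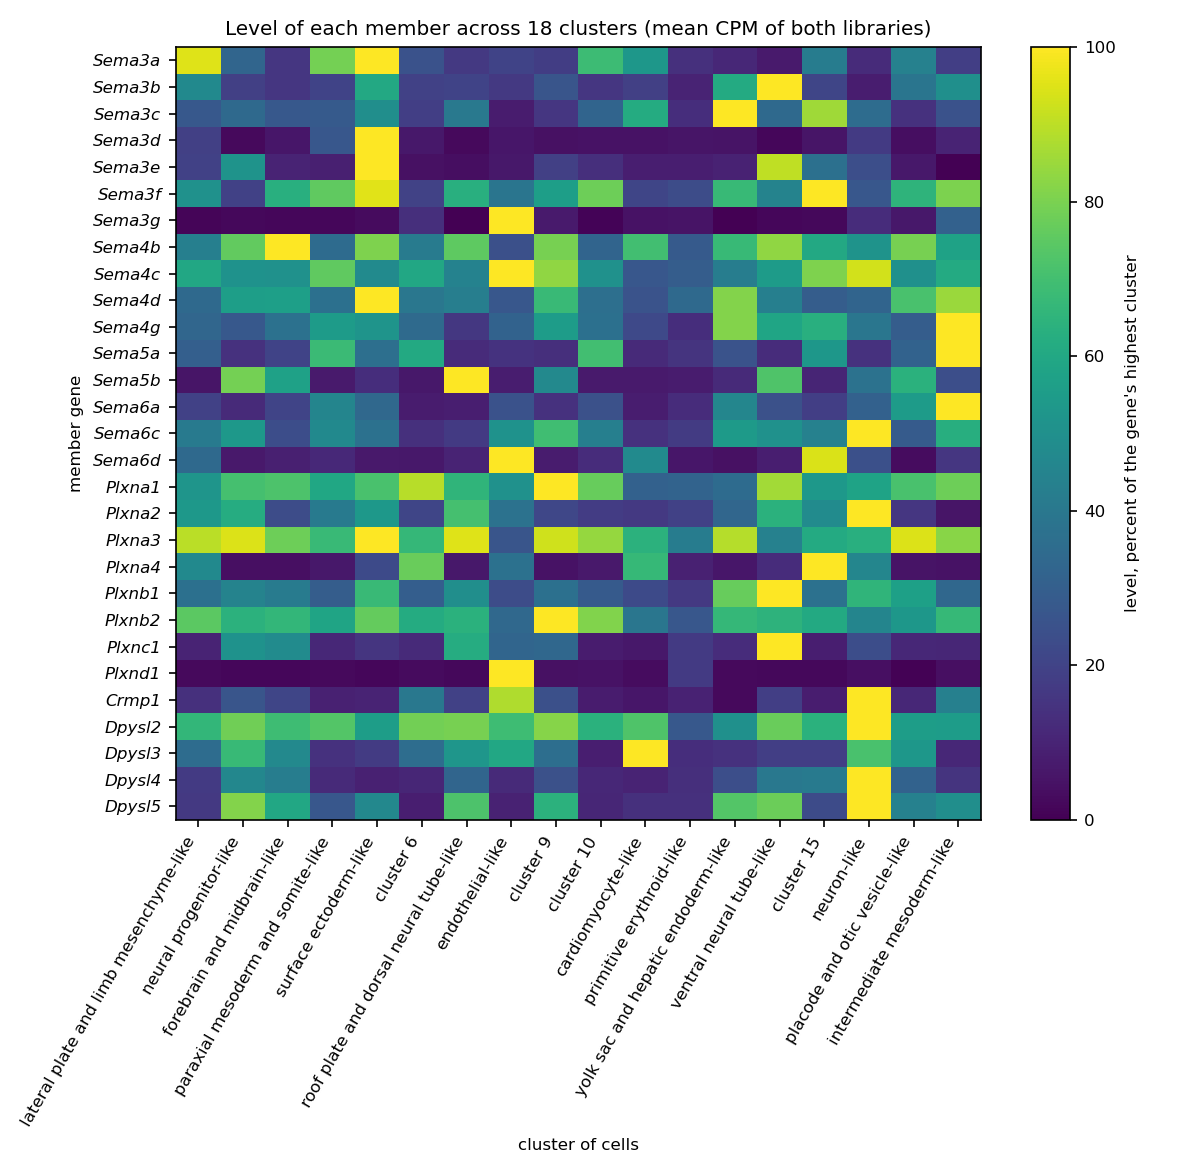
Level of each of the 29 members with at least 200 UMIs (rows) in the 18 clusters (columns), as the mean CPM of both libraries in percent of the gene's own highest cluster. Plxnd1, Sema3g and Sema3d are bright in a single column (the next cluster of Sema3g reaches 11.7 of 37.9 CPM), whereas Plxna1, Plxna3, Dpysl2 and Plxnb2 are spread over most columns.

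Among the secreted class 3 ligands, Sema3a, the cue that collapses growth cones of sensory axons, was broad. In surface ectoderm-like cells it was at 819 CPM in the wild-type and 789 CPM in the Usb1-null library, next to 847 and 684 CPM in lateral plate and limb mesenchyme-like cells. These neighbours changed places between the libraries, and the mean of 804 CPM was 4.41 times that of the median cluster. Sema3d was narrower. It had 322 CPM (wild-type) and 287 CPM (Usb1-null) in surface ectoderm-like cells against 92.8 and 72.9 CPM in the paraxial mesoderm and somite-like cells that followed, and the first cluster stood 17.6-fold above the median one. Sema3e, a ligand that binds Plxnd1 without a neuropilin, was at 171 and 172 CPM in surface ectoderm-like cells. The ventral neural tube-like cells came next with 96.8 CPM in the wild-type and 214 CPM in the Usb1-null library, so that the order of both clusters was opposite in the libraries.

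Sema3c, which attracts neural crest cells to the cardiac outflow tract, was at 340 and 312 CPM in yolk sac and hepatic endoderm-like cells and at 282 and 276 CPM in cluster 15. The leading genes of cluster 15 included Tbx1, Tlx1 and Gfra1. Sema3f, a repellent that acts through Nrp2, had 52.2 and 64.8 CPM in cluster 15 and 59.0 and 52.8 CPM in surface ectoderm-like cells, and its highest cluster was only 1.68-fold above the median. Sema3b was sparse, and its highest level, in ventral neural tube-like cells, rested on 7 and 8 UMIs. Sema3g, a vascular class 3 semaphorin, stood furthest above its median cluster among the placed ligands, though that cluster was at only 1.01 CPM. Its first cluster exceeded the second beyond counting error in the Usb1-null library only, whereas that of Sema3d did so in both. Of its 77 wild-type and 140 Usb1-null UMIs, 54 and 90 lay in endothelial-like cells, at 37.1 and 38.7 CPM, which is 37.6 times the median cluster. On the genome Sema3d, Sema3a, Sema3e and Sema3c lie in that order on chromosome 5. By the mean of both libraries the highest cluster was surface ectoderm-like for Sema3d, Sema3a and Sema3e, and yolk sac and hepatic endoderm-like for Sema3c. Sema3a and Sema3e did not hold this place in each library taken alone.

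The class 4 ligands, membrane proteins that signal mainly through B plexins, were more even. Sema4c had 53.0 and 96.0 CPM in endothelial-like and 62.1 and 76.4 CPM in neuron-like cells, with the first cluster 1.89-fold above the median one. In the wild-type library alone cluster 15 came first, at 64.4 CPM. Sema4d, a ligand of Plxnb1 that also acts on immune cells, reached 44.0 and 49.3 CPM in surface ectoderm-like cells, then 35.2 and 44.1 CPM in intermediate mesoderm-like cells, and stood 2.43-fold above its median cluster. Sema4b was at 47.1 and 34.4 CPM in forebrain and midbrain-like cells and at 47.1 and 20.7 CPM in ventral neural tube-like cells, 1.57-fold above the median cluster at most. Sema4g reached 29.3 and 14.7 CPM in intermediate mesoderm-like cells on 5 UMIs in each library, followed by 15.7 and 20.1 CPM in yolk sac and hepatic endoderm-like cells. It stood 2.71-fold above its median cluster. Sema4a had 66 and 106 UMIs in all, too few to be placed.

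Class 5 and class 6 members, membrane ligands that bind A plexins, were highest in the intermediate mesoderm, dorsal neural tube, endothelial or neuron-like clusters. Sema5a was at 616 and 802 CPM in intermediate mesoderm-like cells and 519 and 470 CPM in cluster 10, and its first cluster was 4.39-fold above the median. Sema5b was high in several neural tube clusters, with 499 and 491 CPM in roof plate and dorsal neural tube-like cells, 415 and 370 CPM in neural progenitor-like cells and a mean of 358 CPM in ventral neural tube-like cells. The first of these exceeded the second beyond counting error in both libraries and the median cluster by 8.01-fold. Sema6a, which repels axons and migrating granule cells through Plxna2 and Plxna4, was at 1184 and 1193 CPM in intermediate mesoderm-like cells. Placode and otic vesicle-like cells followed at 670 and 634 CPM, and the first cluster stood apart in both libraries, 4.41-fold above the median.

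Sema6d, known from cardiac morphogenesis, was shared by endothelial-like cells (328 and 339 CPM) and cluster 15 (374 and 256 CPM), with 10.8 times the median cluster in the former. Cardiomyocyte-like cells came after these with a mean of 160 CPM. Sema6c reached 35.8 and 20.4 CPM in neuron-like cells on 15 and 8 UMIs, and 17.2 and 21.8 CPM in cluster 9, at most 2.30-fold above the median cluster. A pair of sparse members had their highest level in endothelial-like cells as well. Sema6b had 37 of its 75 wild-type and 57 of its 92 Usb1-null UMIs there, at 25.4 and 24.5 CPM. Sema7a, the only class 7 member, a lipid-anchored ligand of Plxnc1, had 16 of 39 and 15 of 57 UMIs there.

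Among the receptors, Plxnd1, the endothelial plexin that restrains sprouting, was the most restricted of the 29 placed members. It had 505 of 689 wild-type UMIs and 783 of 1085 Usb1-null UMIs in endothelial-like cells, at 347 and 337 CPM. Primitive erythroid-like cells followed with 50.6 and 65.5 CPM, and cluster 10 came after these with a mean of 16.8 CPM. With every cell thinned to 800 UMIs, a Plxnd1 UMI was found in 185 of 766 wild-type endothelial-like cells (24.2%, Clopper-Pearson interval 21.2 to 27.3%) and in 193 of 785 Usb1-null cells (24.6%, 21.6 to 27.7%). Before thinning, which left out 132 and 6 shallower cells, the shares were 40.4% and 56.9% at median depths of 1360 and 2521 UMIs. In surface ectoderm-like cells, of median depth 1234 and 2272 UMIs, 3 of 1074 and 4 of 1113 thinned cells held a Plxnd1 UMI (0.279% and 0.359%). In primitive erythroid-like cells 14 of 331 (4.23%) and 10 of 180 (5.56%) did, above that background in both libraries. Thinning left out more wild-type cells here as well, since the clusters held 598 and 189 erythroid-like and 1283 and 1127 surface ectoderm-like cells. Endothelial markers were also present in the erythroid-like cells, at a sum of 348 and 640 CPM against 7370 and 6558 CPM in endothelial-like cells, and their part in the Plxnd1 value there was not tested. All 15 endothelial markers were raised in the endothelial-like cluster.

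**Figure D2:**
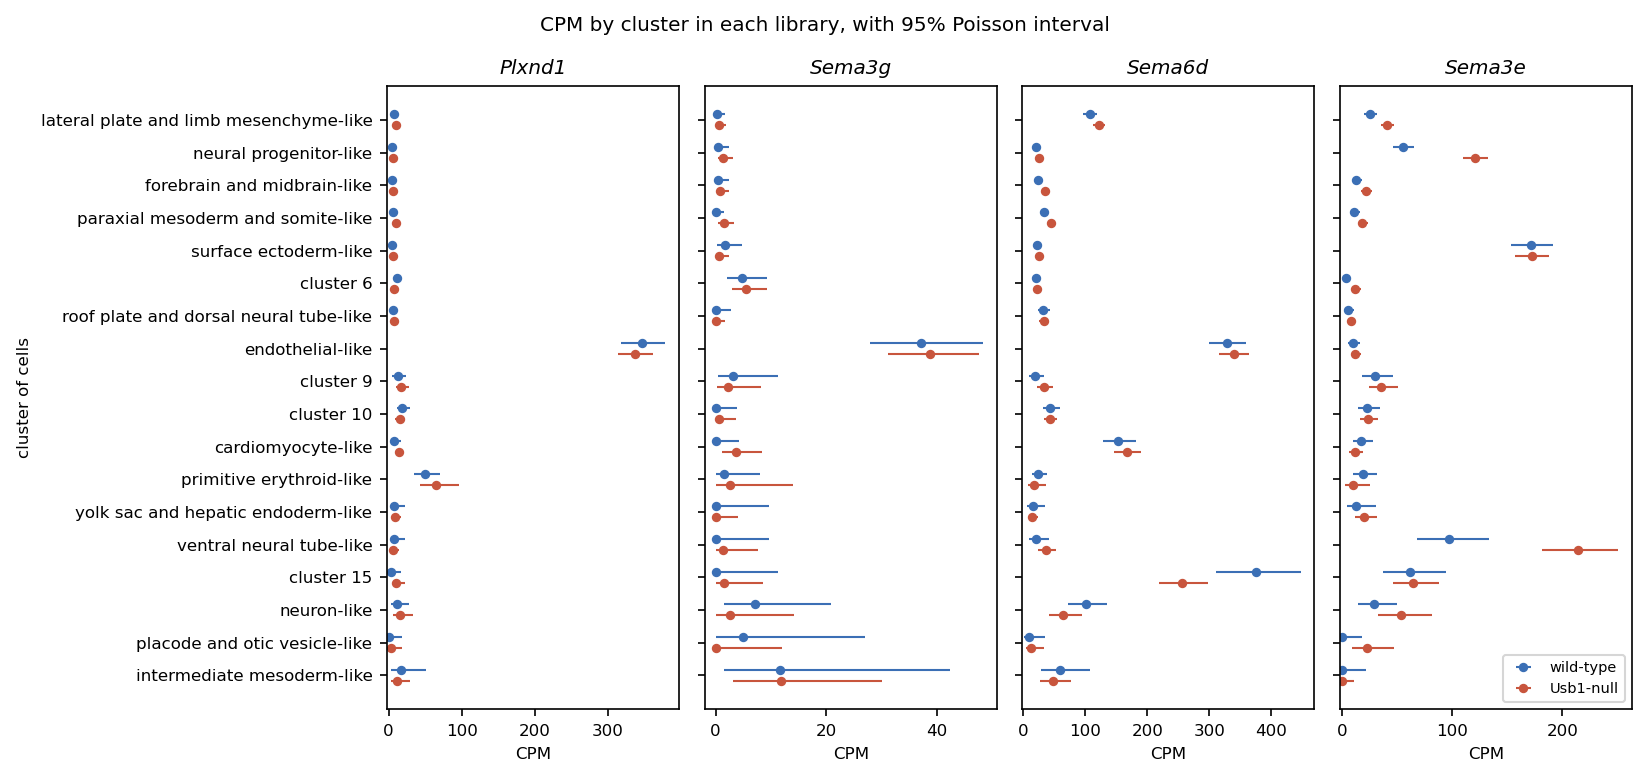
CPM of Plxnd1, Sema3g, Sema6d and Sema3e (x axes, linear, own scale in each panel) in the 18 clusters (y axis) of the wild-type (blue) and the Usb1-null (red) library, with 95% Poisson intervals. Plxnd1 and Sema3g peak in endothelial-like cells at nearly the same level in both libraries, Sema6d also reaches 374 and 256 CPM in cluster 15, and Sema3e is near 171 CPM in surface ectoderm-like cells of both libraries but at 96.8 and 214 CPM in ventral neural tube-like cells.

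The A plexins, receptors for class 3 signals with a neuropilin and for class 5 and 6 ligands, peaked in different tissues. Plxna2 was at 482 and 571 CPM in neuron-like cells and 413 and 331 CPM in roof plate and dorsal neural tube-like cells, 2.83-fold above the median cluster. Plxna4, the main sensory axon receptor for semaphorin 3A, reached 783 and 609 CPM in cluster 15 and 502 and 574 CPM in cluster 6, with 12.3 times the median cluster. Plxna1 and Plxna3 had no cluster far above the median one, though both had low clusters, Plxna1 with a mean of 16.98 CPM in cardiomyocyte-like and Plxna3 with 5.68 CPM in endothelial-like cells. The first had 57.8 and 51.6 CPM in cluster 9 and 43.3 and 54.4 CPM in cluster 6 (1.47-fold above the median cluster). The second had 20.4 and 22.5 CPM in surface ectoderm-like cells and 20.2 and 20.5 CPM in roof plate and dorsal neural tube-like cells.

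Plxnb1, the receptor of Sema4d, was at 102 and 101 CPM in ventral neural tube-like cells and at 62.7 and 92.8 CPM in yolk sac and hepatic endoderm-like cells, 2.70-fold above the median cluster. Plxnb2, a broadly used B plexin needed for neural tube closure, was at 181 and 131 CPM in the shallow cluster 9 and at 144 and 109 CPM in cluster 10, 1.56-fold above the median. Plxnc1, the receptor of Sema7a, had 191 and 213 CPM in ventral neural tube-like cells and 108 and 142 CPM in roof plate and dorsal neural tube-like cells. This first place held beyond counting error in both libraries, at 7.19 times the median cluster. The neuropilins, co-receptors of most class 3 ligands, were not members. Nrp1 was at 1178 and 1099 CPM in intermediate mesoderm-like and 880 and 775 CPM in endothelial-like cells. Nrp2 had 500 and 483 CPM in paraxial mesoderm and somite-like and 478 and 451 CPM in endothelial-like cells, which did not separate beyond counting error.

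By the mean of both libraries, all CRMPs except Dpysl3 were highest in neuron-like cells. Dpysl2 (CRMP2), which promotes tubulin assembly in growing axons, was at 258 and 242 CPM there and at 186 and 222 CPM in cluster 9, only 1.45-fold above its median cluster. Dpysl5 (CRMP5), a marker of newborn neurons, was at 315 and 196 CPM in neuron-like and 222 and 195 CPM in neural progenitor-like cells, and was 2.21-fold above the median. In the Usb1-null library alone its highest cluster was ventral neural tube-like, within counting error of neuron-like cells. Dpysl4 (CRMP3) had 62.1 and 35.7 CPM in neuron-like against 27.3 and 17.9 CPM in neural progenitor-like cells, a first place that held in both libraries on 26 and 14 UMIs (4.85-fold above the median). Crmp1 reached 88.3 and 86.6 CPM in neuron-like cells, close to 76.3 and 77.5 CPM in endothelial-like cells, and was 6.23-fold above the median. Dpysl3 (CRMP4), which bundles actin, was at 240 and 179 CPM in cardiomyocyte-like and 200 and 99.4 CPM in neuron-like cells, 2.81-fold above the median.

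Known ligand and receptor pairs were compared for place. By the mean of both libraries, 0 of 29 pairs had the same highest cluster, and in 5 the receptor ranked among its 3 highest clusters where the ligand was highest. The latter is 17.2% of the pairs, beside 20.2% of the 198 combinations of the 18 ligands and 11 receptors listed, of which 7.07% shared the highest cluster. The 5 were Sema3g and Sema3f with Nrp2, Sema4d with Plxnb1 and with Plxnb2, and Sema5b with Plxna3. Of these genes, Sema5b alone had a highest cluster that stood above the second beyond counting error in both libraries. Pairs share members and are not independent of one another, and 4 of them include a gene too sparse to be placed (Sema4a, Sema6b, Sema7a or Plxnb3). In endothelial-like cells, where Plxnd1 was at a mean of 342 CPM, its ligand Sema3e was at 10.8 CPM (rank 15 of 18 clusters) and Sema3c was at 25.1 CPM, the lowest of the 18. Plxnd1 was at 5.58 CPM in surface ectoderm-like cells (rank 17), the highest cluster of Sema3e. For Sema3a, the co-receptor Nrp1 was at 98.8 CPM (rank 16) in surface ectoderm-like cells, and Sema3a was at 148 CPM (rank 11) where Nrp1 was highest. Plxna2 had its lowest level, 30.8 CPM, in the intermediate mesoderm-like cells in which Sema6a was highest. Sema6d and Plxna4 were at 315 CPM (rank 2) and 696 CPM (rank 1) in cluster 15, and Sema3g and Nrp2 at 37.9 CPM and 464 CPM (rank 2) in endothelial-like cells. In the wild-type library alone cluster 15 was the highest for both Sema6d and Plxna4.

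Profiles over the 18 clusters were most alike for Sema5b and Dpysl5 (Pearson's r 0.82), Plxnb1 and Dpysl5 (0.77) and Sema5b and Plxnc1 (0.75). Sema5b, Dpysl5 and Plxnc1 had their highest levels in neural clusters. Plxnb1 was highest in ventral neural tube-like cells, but yolk sac and hepatic endoderm-like and surface ectoderm-like cells followed. The most opposite pairs were Plxnd1 with Plxna3 (-0.76) and with Sema4b (-0.73). These are descriptions over clusters of the same 2 libraries.

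Between the libraries, no member differed by 1.5-fold or more. Fold calls, here and below, were made with 1 CPM added to both levels, while printed ratios have nothing added. The counts were 0 of 32 higher and 0 of 32 lower in the Usb1-null library, where 5.70% of the 16752 genes with at least 50 UMIs were higher and 3.96% lower by that measure. The median member had a log2 ratio (1 CPM added) of 0.03, against -0.0015 over all genes. The intervals of 9 members lay above a ratio of 1, those of 9 below it, and those of the remaining 14 included it. Both counts are 28.1% of the members, beside 27.1% of all genes with an interval above 1 and 28.5% with one below it. Intervals narrow with a gene's UMIs, for which these shares were not matched.

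Just under the threshold stood Sema3e, with 761 UMIs (35.0 CPM) in the wild-type and 1734 UMIs (51.9 CPM) in the Usb1-null library, a ratio of 1.48 (interval 1.36 to 1.62). With predicted doublets removed its log2 ratio was 0.60 and it passed 1.5-fold. Plxnc1 followed with 45.6 and 63.1 CPM, a ratio of 1.38 (1.28 to 1.49), and Sema4c with 37.4 and 50.2 CPM, 1.34 (1.23 to 1.46). Sema4g was at 7.78 and 9.86 CPM (1.27, 1.05 to 1.53), Sema4d at 19.97 and 24.9 CPM (1.248, 1.11 to 1.40) and Plxnb1 at 37.3 and 45.6 CPM (1.22, 1.12 to 1.33). On the lower side Sema4b had 27.5 and 21.1 CPM, a ratio of 0.767 (0.686 to 0.856). Dpysl4 was at 13.2 and 10.3 CPM (0.780, 0.665 to 0.916), Dpysl3 at 92.7 and 73.0 CPM (0.788, 0.743 to 0.836), Plxnb2 at 110 and 88.7 CPM (0.809, 0.766 to 0.854) and Plxna2 at 239 and 203 CPM (0.848, 0.818 to 0.879). Narrow intervals around 1 were found for Sema6a (273 and 274 CPM, 1.00, 0.972 to 1.04), Sema5b (150 and 152 CPM, 1.01, 0.971 to 1.06) and Dpysl2 (172 and 176 CPM, 1.02, 0.982 to 1.07).

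The other members lay in between. Intervals above 1 were also found for Sema3c (102 and 111 CPM), Sema6d (69.5 and 76.2 CPM) and Crmp1 (19.1 and 21.9 CPM), with ratios of 1.08, 1.10 and 1.14. Intervals below 1 were also found for Sema3a (400.4 and 384 CPM, ratio 0.960), Sema5a (248 and 219 CPM, 0.884), Plxna4 (188 and 168 CPM, 0.898) and Dpysl5 (105 and 99.6 CPM, 0.946). Intervals that included 1 belonged to Sema3b, Sema3d, Sema3f, Sema3g, Sema4a, Sema6b, Sema6c, Sema7a, Plxna1, Plxna3 and Plxnd1, with ratios from 0.799 for Sema6b (75 and 92 UMIs) to 1.18 for Sema3g (77 and 140 UMIs).

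**Figure D3:**
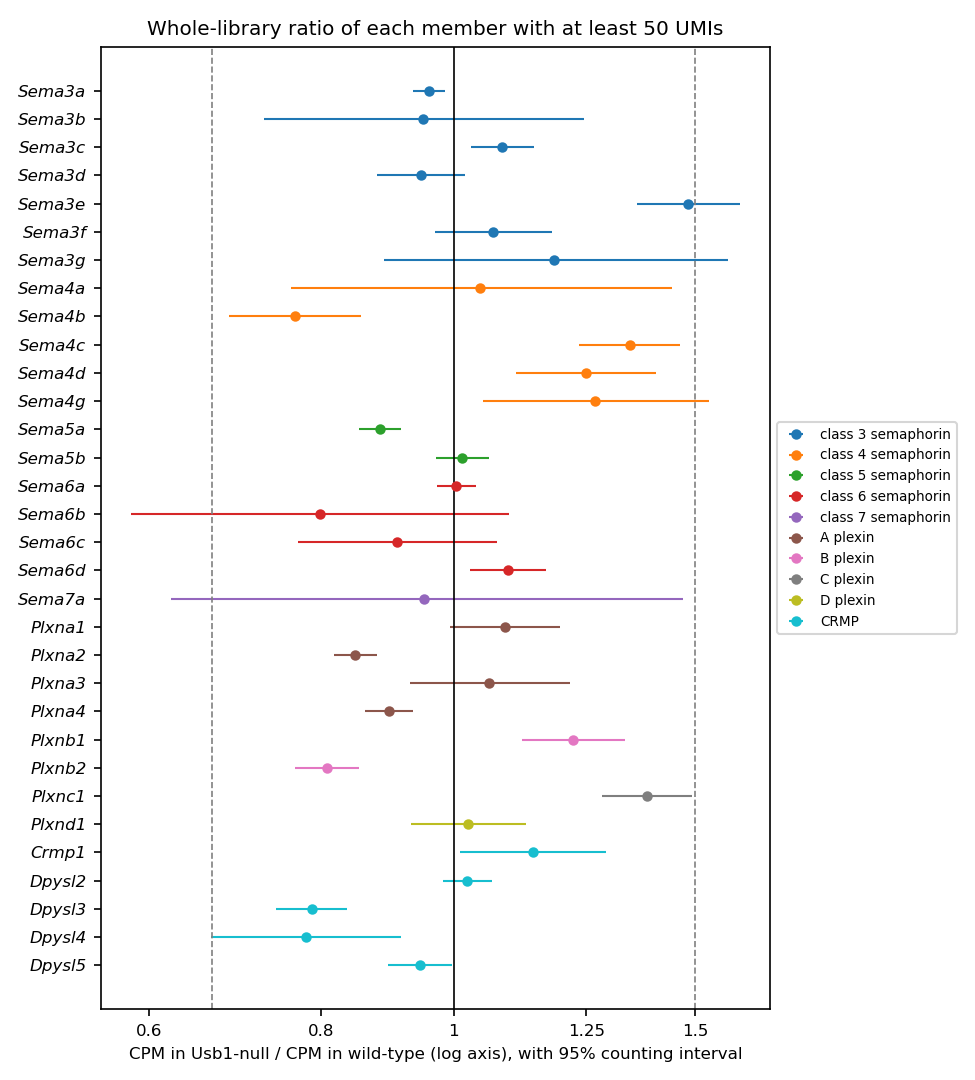
Ratio of CPM in the Usb1-null over the wild-type library (x axis, log scale) for the 32 members with at least 50 UMIs (y axis, coloured by family), with 95% counting intervals. Dashed lines mark 1.5-fold either way: no point lies beyond them, and Sema3e at 1.48 and Sema4b at 0.767 are the outermost.

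By family, the summed class 3 semaphorins were at 631 CPM in the wild-type and 640 CPM in the Usb1-null library, and all semaphorins together at 1484 and 1487 CPM, a ratio of 1.00 (0.987 to 1.02). Class 4 differed most among the semaphorins, at 96.3 and 110 CPM (1.14, 1.08 to 1.21). The A plexins were at 476 and 425 CPM, the B plexins at 147 and 134 CPM, and the CRMPs at 402 and 380 CPM, a ratio of 0.946 (0.921 to 0.973).

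Within clusters, 379 pairs of a member and a cluster had at least 30 UMIs. In 5 of them (1.32%) the member was at least 2-fold higher in Usb1-null cells with an interval above 1, and in 9 (2.37%) it was at least 2-fold lower with an interval below 1. Over all genes the same calls took 1.95% and 1.70% of 163227 pairs. Neither share of the members was far from its background, and their balance changed in 2 settings that redrew the clusters, 1 of which also removed cells. With doublets removed 10 of 358 pairs were higher (2.79%, background 2.09%) and 6 lower (1.68%, background 1.71%), and at a resolution 0.4 higher 8 of 443 were higher and 8 lower (1.81% each, background 1.96% and 1.82%). With nothing added to the levels, a setting chosen after the data were seen, the higher pairs numbered 7 (1.85%, background 2.21%) and the lower pairs 9 (background 1.95%). The added pairs were Plxnc1 in lateral plate and limb mesenchyme-like cells, with 43 and 132 UMIs (2.01, 1.42 to 2.91), and Sema3f in cluster 6, with 13 and 37 UMIs (2.02, 1.05 to 4.15).

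Sema3e held 3 of the 5 higher calls. In neural progenitor-like cells it had 127 UMIs (55.1 CPM) in the wild-type and 459 UMIs (121 CPM) in the Usb1-null library, a ratio of 2.19 (1.79 to 2.68). In ventral neural tube-like cells it had 37 UMIs (96.8 CPM) and 155 UMIs (214 CPM), a ratio of 2.21 (1.54 to 3.26). Cluster 6 had 6 and 29 UMIs, at 3.51 and 12.1 CPM (3.44, 1.40 to 10.1). The wild-type level there, unlike the Usb1-null level, lay within the range of free RNA, relative to the highest cluster, and was not read as expression. In its highest cluster, surface ectoderm-like cells, the ratio was 1.00 (0.871 to 1.16). The share of thinned ventral neural tube-like cells with a Sema3e UMI was 16 of 230 (6.96%, 4.03 to 11.05%) in the wild-type and 41 of 287 (14.3%, 10.5 to 18.9%) in the Usb1-null library, from 8.68% and 25.3% before thinning at median depths of 1163.5 and 2213 UMIs. Each library had 288 ventral neural tube-like cells before thinning, so more wild-type cells were left out. Endothelial-like cells, in which Sema3e was low, gave 3 of 766 (0.392%) and 5 of 785 (0.637%).

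Cell type markers in the same clusters were as follows. The 10 ventral neural tube markers summed to 5388 and 4534 CPM in the ventral neural tube-like cells of the wild-type and Usb1-null library, with 6 of 10 lower. In neural progenitor-like cells the 15 neural progenitor markers summed to 1447 and 1172 CPM, with 10 of 15 lower, and the 12 hindbrain and spinal cord markers to 732 and 758 CPM, with 9 of 12 higher. In cluster 6, 16 of 19 neuron markers were higher in the Usb1-null library (208 and 286 CPM in sum), and their part in the Sema3e value there was not tested.

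The remaining higher calls with 1 CPM added were Sema3d in endothelial-like cells, with 15 UMIs (10.3 CPM) and 60 UMIs (25.8 CPM), a ratio of 2.50 (1.40 to 4.75), and Sema4d in cardiomyocyte-like cells, with 5 UMIs (5.74 CPM) and 25 UMIs (18.02 CPM), 3.14 (1.18 to 10.5). Surface ectoderm markers, the list of the cells richest in Sema3d, summed to 116 and 102 CPM in endothelial-like cells, with 8 of 14 lower. After thinning, 3 of 766 and 9 of 785 endothelial-like cells held a Sema3d UMI, 0.392% and 1.15%. The wild-type level of Sema3d in endothelial-like cells also lay within the range of free RNA, whereas the Usb1-null level lay above it. With doublets removed, no pair with Sema3d met this call in either direction, and at the higher resolution none with Sema4d was higher.

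Sema4b made up 3 of the 9 lower calls: 20 and 14 UMIs in endothelial-like cells (0.438, 0.205 to 0.912), 29 and 17 UMIs in cluster 9 (0.430, 0.222 to 0.810) and 18 and 15 UMIs in ventral neural tube-like cells (0.440, 0.206 to 0.924). Sema3c was lower in intermediate mesoderm-like cells, at 111 and 52.9 CPM (0.475, 0.235 to 0.956), and Plxna2 in placode and otic vesicle-like cells, at 117 and 48.8 CPM (0.418, 0.204 to 0.831). In primitive erythroid-like cells Sema3a was at 153 and 70.6 CPM (0.461, 0.292 to 0.704) and Dpysl5 at 53.5 and 17.6 CPM (0.330, 0.124 to 0.750). With doublets removed, no pair with Sema3a or Dpysl5 was lower. Marker lists of other tissues differed in these cells in both directions. Surface ectoderm markers were at 175 and 83.2 CPM (11 of 14 lower) and somite markers at 209 and 103 CPM (9 of 17 lower, 4 of 17 at 0 in both libraries), whereas endothelial markers were higher (11 of 15). The erythroid markers themselves were at 19078 and 11802 CPM (12 of 13 lower). Their part in the Sema3a and Dpysl5 values was not tested. Primitive erythroid-like cells were 3.94% of wild-type and 1.45% of Usb1-null cells.

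**Figure D4:**
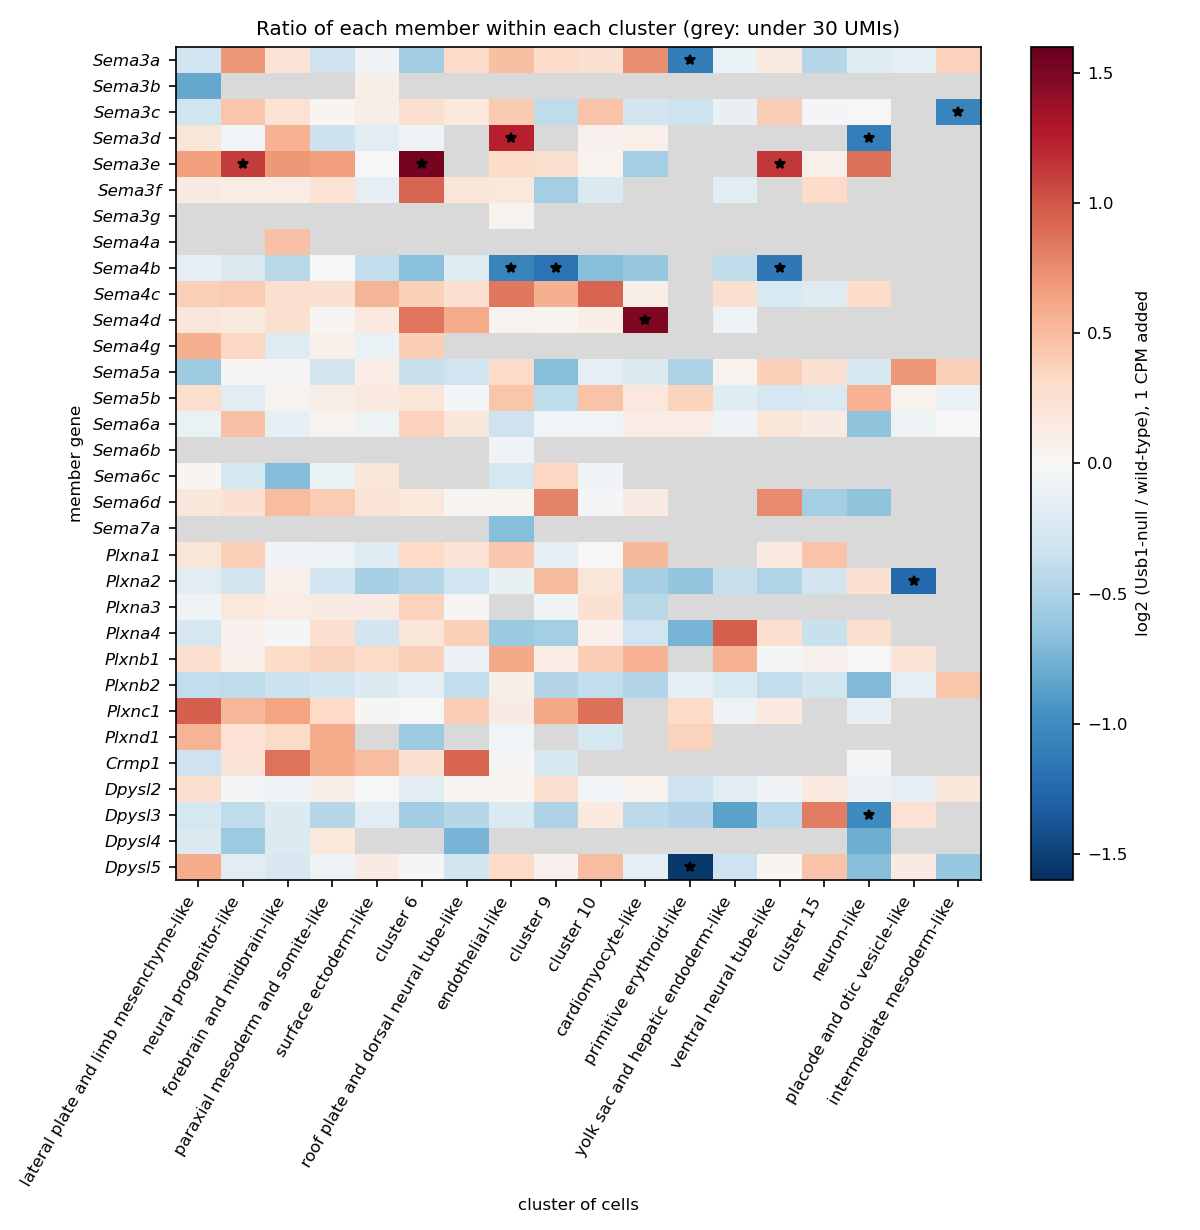
Log2 ratio of Usb1-null over wild-type CPM (1 CPM added, colour) for each member (rows) in each of the 18 clusters (columns); grey cells had under 30 UMIs, and stars mark the 14 such ratios of at least 2-fold either way whose interval leaves out 1. Sema3e is red in nearly all of its columns and Sema4b and Plxnb2 are blue in nearly all of theirs.

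The last 2 lower calls, Sema3d and Dpysl3, fell in neuron-like cells, which made up 313 cells (2.07%, 1.84 to 2.30%) of the wild-type and 154 cells (1.18%, 1.00 to 1.38%) of the Usb1-null library. Dpysl3, a call that ended with 5 CPM added and with another random seed, was at 200 and 99.4 CPM there (0.496, 0.330 to 0.733) and Sema3d at 71.6 and 33.1 CPM on 30 and 13 UMIs (0.463, 0.222 to 0.914). Dpysl5 had 315 and 196 CPM (0.623, 0.464 to 0.831) and Sema6a 449 and 288 CPM (0.642, 0.504 to 0.815), both under 2-fold. Crmp1 (0.981, 0.597 to 1.61) and Dpysl2 (0.939, 0.705 to 1.249) had intervals around 1, and Sema5b was higher at 150 and 222 CPM (1.47, 1.05 to 2.07). The 5 CRMPs together were at 923 and 660 CPM in neuron-like cells, and these cells held 4.43% (4.01 to 4.88%) of all wild-type and 2.04% (1.801 to 2.30%) of all Usb1-null CRMP UMIs. Neuron markers moved the same way: 18 of 19 were lower in Usb1-null neuron-like cells, their sum was 4057 and 2737 CPM, and Tubb3, the neuronal beta tubulin, was at 494 and 199 CPM. Their part in the CRMP values was not tested.

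**Figure D5:**
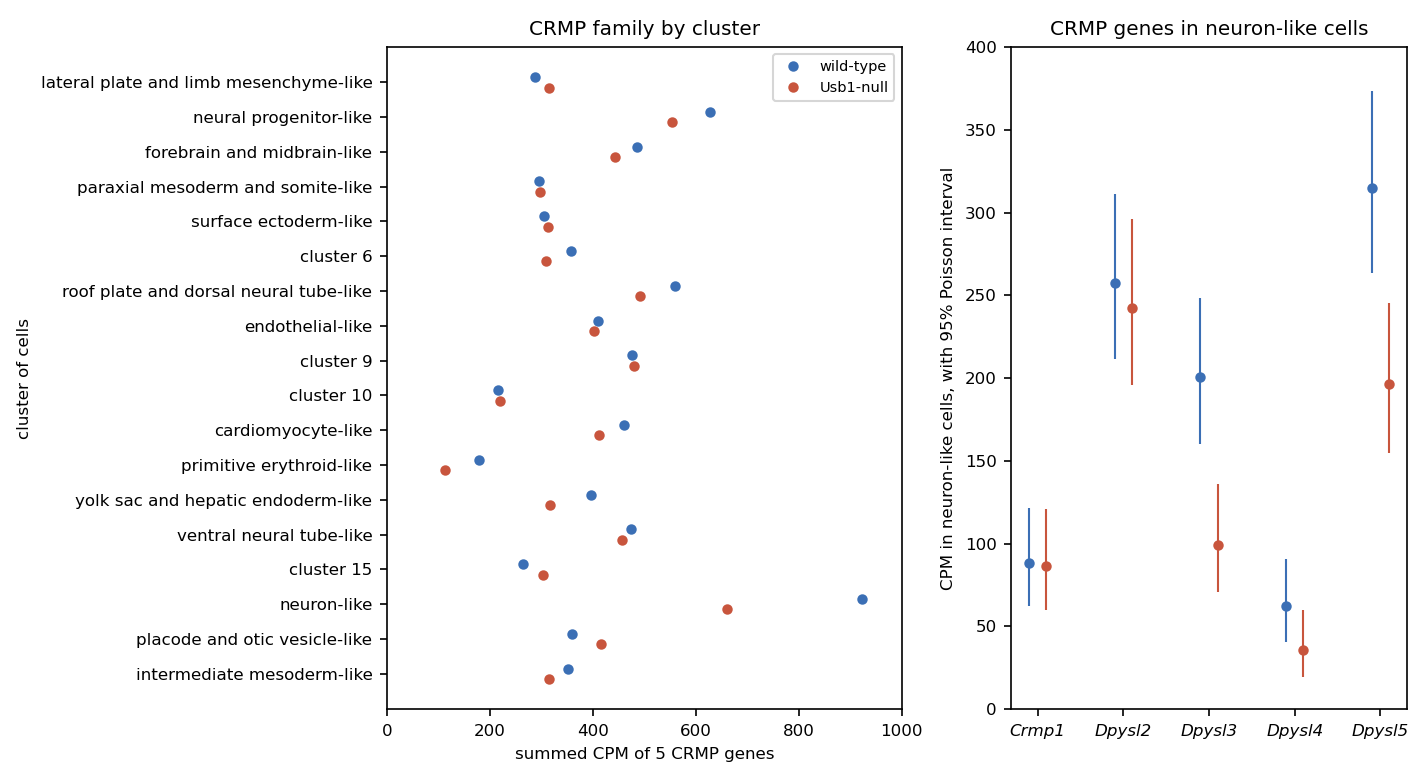
Left, summed CPM of the 5 CRMP genes (x axis) in each cluster (y axis) of the wild-type (blue) and Usb1-null (red) library; right, CPM of each CRMP in neuron-like cells with 95% Poisson intervals. Neuron-like cells have the highest sum in both libraries, 923 and 660 CPM, and in the right panel the intervals of Dpysl3 and Dpysl5 lie apart between the libraries, and those of Crmp1, Dpysl2 and Dpysl4 overlap.

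Small differences that recurred over clusters were counted for the 23 members measured in at least 10 clusters. In at least 80% of their clusters 5 were higher in the Usb1-null library (21.7%, background 18.6% of 9155 genes) and 3 were lower (13.0%, background 23.3%). The clusters of a library share its preparation and are not replicates. The higher members were Sema3e (12 of 13 clusters), Sema4c (13 of 15), Sema4d (11 of 12), Plxnb1 (13 of 16) and Plxnc1 (12 of 14), and the lower ones Sema4b (13 of 13), Plxnb2 (16 of 18) and Dpysl3 (14 of 17). Median log2 ratios over clusters were 0.66 for Sema3e, 0.30 for Sema4c, 0.16 for Sema4d, 0.28 for Plxnb1, 0.31 for Plxnc1, -0.44 for Sema4b, -0.32 for Plxnb2 and -0.41 for Dpysl3. Plxna2 was lower in 13 of 17 clusters, with 10 intervals below 1 and 1 above it. Plxnd1 in endothelial-like cells had a ratio of 0.970 (0.867 to 1.09), Sema3g 1.04 (0.736 to 1.49) and Sema6d 1.03 (0.922 to 1.16). In the same cells Sema4c was at 53.0 and 96.0 CPM (1.81, 1.39 to 2.38) and Plxna4 at 312 and 206 CPM (0.660, 0.580 to 0.753).

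Of 57 further genes listed with the pathway, 54 had at least 50 UMIs. With 1 CPM added, 2 were at least 1.5-fold higher and 1 was lower in the Usb1-null library, with a median log2 ratio of -0.0020. Over all genes 5.70% were higher and 3.96% lower by the same call, so these counts did not exceed the background. By listed group, 0 of 13 measured co-receptors, 2 of 28 in the plexin effector group and 1 of 13 CRMP kinases and partners passed 1.5-fold by this call. The plexin effector group also held the plexin domain proteins Plxdc1 and Plxdc2, which are not themselves shown here to act in plexin signalling. Nrp1 was at 294 and 276 CPM (0.936, 0.906 to 0.966) and Nrp2 at 227 and 219 CPM (0.962, 0.927 to 0.997). The higher genes were Cfl1, the actin-severing protein cofilin 1, at 75.5 and 115 CPM (1.53, 1.44 to 1.62), and Plxdc1, a plexin domain protein of vessels, at 7.73 and 18.8 CPM (2.43, 2.05 to 2.90). The lower gene was Tubb3, at 19.8 and 10.9 CPM (0.548, 0.476 to 0.632). Cdk5, a kinase of CRMPs, was at 15.55 and 10.33 CPM, and its ratio of 0.664 (0.570 to 0.774) passes 1.5-fold only with nothing added. In intermediate mesoderm-like cells Nrp2 had 5 and 27 UMIs, at 29.3 and 79.3 CPM (2.71, 1.03 to 8.999).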

How the data were processed

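Cells of whole E9.5 embryos were run on the 10x Genomics Chromium platform (3′ chemistry v3.1). The authors deposited 1 matrix of raw UMI counts per library, not normalised. The matrix headers name Cell Ranger 6.1.2, whereas the submitters' processing notes list Cell Ranger 2.1.1 and the build mm10. No source used here says whether intronic reads were counted. The labels name nuclear RNA, whereas the protocol describes cells. The deposited counts held 15162 wild-type barcodes (21751961 UMIs) and 13034 Usb1-null barcodes (33775852 UMIs), each with at least 500 UMIs, and 61 barcode sequences occurred in both. The study states fewer wild-type cells than were deposited and as many Usb1-null cells.

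Cells with 200 to 6000 genes and under 30% mitochondrial UMIs were kept, as the study states. Clusters were built with Scanpy 1.11.5, 2000 variable genes per library without the members, 30 principal components, a Harmony correction rewritten in NumPy 2.4.6, 15 neighbours and Leiden clustering (leidenalg 0.10.2, resolution 0.4). Predicted doublets (1025 wild-type, 6.76%, and 560 Usb1-null, 4.30%) were kept. A cluster was named from marker lists by a rule set after the clusters were seen. CPM are UMIs of a gene per 1000000 UMIs of the library or cluster, and genes needed 50 UMIs over both libraries for a ratio. Fold calls used ratios with 1 CPM added. Intervals are exact Poisson, Clopper-Pearson or conditional binomial at 95% and cover counting error only.

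The members, gene lists, pairs and thresholds were chosen with earlier results of these data known. Genes named are all members, member and cluster pairs past 2-fold, both neuropilins, and other pathway genes past 1.5-fold. Further pairs in endothelial-like and neuron-like cells that did not pass 2-fold, and Cdk5, were chosen after their values were seen. Of the ligand and receptor pairs and thinned genes, those printed were selected after their values were seen. Promoter windows came from RefSeq and gene positions from GENCODE M21. Whole-library ratios and intervals were also run on simulated Poisson counts, where 95.4% of the intervals held the true ratio. The intervals assume such counts, so this says nothing of the spread between real libraries. No column belonged to an unmatched sample.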

Additional observations from a re-analysis of the deposited data

Results flagged for a closer look

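Sema3d differed in direction between cell types. The ratio of the Usb1-null over the wild-type library was 2.50 in endothelial-like cells (15 and 60 UMIs) and 0.463 in neuron-like cells (30 and 13 UMIs), each with an interval that leaves out 1. With predicted doublets removed, no pair with Sema3d met the 2-fold call with an interval that leaves out 1. The wild-type level in endothelial-like cells lay within the range of free RNA, whereas the Usb1-null level lay above it. The difference between these cell types was not tested, since each rests on 1 library per group.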

How the results depend on the processing

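No paired analysis was possible because each group was 1 library, and for the same reason no replicate could be left out. Of the 381 ratios of single members under other settings, 373 stayed within their counting interval, 8 moved out of it and 0 reversed. All 8 came with a minimum of 1000 detected genes per cell, which keeps 19390 of 28179 cells. With doublets removed, 1 member (Sema3e) was at least 1.5-fold higher; in the other settings this count was 0, as was the count of lower members in all of them. The median log2 ratio of the members stayed between 0.0026 (wild-type cluster shares in both libraries) and 0.055 (at least 1000 detected genes). Without the adult liver-like cells, a setting added after the data were seen, it was 0.028.

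Pairs at least 2-fold higher within a cluster numbered 10 with doublets removed and 8 at a resolution 0.4 higher, against 5. Sema3e was among the higher genes in each, Sema3d was not with doublets removed and Sema4d was not at the higher resolution. Lower pairs numbered 6 to 9. With no CPM added the higher pairs numbered 7 and the lower ones 9. Removing doublets and raising the resolution both redraw the clusters, the former on fewer cells, and the cause was not tested. With at least 1000 detected genes, neuron-like cells were 1.57% of wild-type and 1.11% of Usb1-null cells, and held 3.41% and 2.04% of the CRMP UMIs. When members were allowed among the variable genes, they were 2.24% and 1.498% of cells and held 4.67% and 2.42% of the CRMP UMIs. Of the 29 highest clusters, 27 were the same with members among the variable genes, 24 with doublets removed, 24 in the wild-type and 21 in the Usb1-null library alone.

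Depth limits the sparse members: Sema4f and Plxnb3 had too few UMIs for a ratio, and many pairs of a member and a cluster had under 30. Counting intervals do not hold the spread between embryos, and sex, depth and genotype cannot be told apart here.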
